A study of Mus musculus with 12 samples.

Results

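The genes described here encode 10 nuclear receptors that bind DNA as a pair with the retinoid X receptor (RXR). They were chosen by name from 54532 genes counted by RNA-seq in 12 mammary tumors of mice. The 10 members are the retinoic acid receptors Rara, Rarb and Rarg, the peroxisome proliferator-activated receptors Ppara, Ppard and Pparg, the liver X receptors Nr1h2 (LXR beta) and Nr1h3 (LXR alpha), the vitamin D receptor Vdr and the thyroid hormone receptor Thra. All mice were female MMTV-Neu animals, in which the MMTV promoter drives Neu, the rodent form of HER2, in mammary epithelium. Their ages were not given in the sources used here. Mice with tumors of 4 mm were fed control diet, MSU-42011 or bexarotene for 10 days, with 4 tumors in each group and 100 mg of compound per kg of diet in both treated groups. The control chow carried the same ethanol and coconut oil vehicle. Both compounds are RXR agonists, and bexarotene is the one in clinical use. Nothing in the labels says which tumors shared a litter or a day, and the tumors were taken as separate samples of their group.

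RXR binds DNA together with a partner receptor, and the partner sets which hormone or lipid the pair answers to and which genes it controls. In permissive pairs, such as those with PPAR or LXR, a ligand of RXR alone can activate transcription. In pairs with the vitamin D or thyroid hormone receptor, RXR is usually described as the silent partner, and pairs with RAR answer to an RXR ligand mainly when the RAR ligand is also present. Which partners a tumor contains therefore bears on what an RXR agonist can act on, and mRNA is the layer measured here. Protein, ligand and receptor activity were not measured.

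All 10 receptors contact DNA through a helix at the base of the first zinc finger. The part of it called the P box reads the half-site of the response element. The coding sequence of the P box is shown for each member as a description. Whether receptors outside this list share it was not examined. The stretches are 30 bases long, were read from the GENCODE M21 transcripts of GRCm38 and run 5′ to 3′, and capitals mark the 18 bases of the P box.
Rara: agcgccTGTGAGGGCTGTAAGGGCttcttc
Rarb: agtgccTGCGAGGGGTGCAAGGGCtttttc
Rarg: agctccTGTGAAGGCTGCAAGGGCttcttc
Ppara: cacgcaTGTGAAGGCTGTAAGGGCttcttt
Ppard: cacgcgTGCGAGGGGTGCAAGGGCttcttc
Pparg: catgctTGTGAAGGATGCAAGGGTtttttc
Nr1h2: ctcagcTGTGAAGGCTGCAAAGGCttcttc
Nr1h3: ctgagcTGCGAGGGCTGCAAGGGAttcttc
Vdr: atgaccTGTGAAGGCTGCAAGGGTttcttc
Thra: atcactTGTGAGGGCTGCAAGGGCttcttt
Each stretch was located by the amino acids CEGCKG of the P box, so all 10 members encode the same peptide there. Of the 18 P box bases, 12 were identical in all 10 members, and that peptide alone fixes them. The 10 genes held 9 different sequences there, which differ only in synonymous bases. The fixed bases also count in the identities that follow. Over the 69 bases that end with the P box, identity was between 75.4% and 85.5% in the 7 pairs within the RAR, PPAR and LXR families. It was between 58.0% and 76.8% in the 38 pairs of members from different families, so the ranges meet.

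Promoters of 9 of the 10 members, all but Thra, were searched for the sequence these pairs bind, 2 half-sites in the same orientation. The 4 half-sites searched were AGGTCA, which is the consensus form, then AGTTCA among its variants, and the forms that begin with GG, which are GGGTCA as well as GGTTCA. They were searched on both strands, as direct repeats spaced by 1 to 5 bases, in RefSeq windows of GRCm38.p6 that run from 250 bases before to 50 bases after a start site. The 16 windows of these 9 members held 1 such repeat, which lies in the Rarb promoter at chr14:16575427-16575726 on the minus strand. Its first base is 53 bases before the start site, and it has the form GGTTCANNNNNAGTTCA. The first 250 bases of this Rarb window are printed because a retinoic acid response element of this spacing is the textbook feature of the gene, and capitals mark the repeat.
Rarb: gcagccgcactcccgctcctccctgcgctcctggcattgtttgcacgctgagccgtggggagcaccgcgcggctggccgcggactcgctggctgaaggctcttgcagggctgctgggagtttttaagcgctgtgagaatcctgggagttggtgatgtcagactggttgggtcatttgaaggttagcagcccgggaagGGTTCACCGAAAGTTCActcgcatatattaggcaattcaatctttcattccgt
Any of the repeats was present in 0.7% of 32851 mouse promoter windows, a repeat spaced by 5 in 0.0974%, and the exact form found in Rarb in 2 windows (0.00609%). Single AGGTCA half-sites were in 4 of the 16 member windows, those of Pparg, Rara and Rarg, and in 16.3% of all windows. The spacing of 5 and the exact form are those of the Rarb repeat itself, so their rates are not a test of it. A match is a description of the letters and not a measured binding site.

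The tumors contained a marked order of partner mRNA. Levels between genes were compared as FPKM, which is scaled for gene length. Vdr and Nr1h2 stood highest, with 123 ± 47.1 and 107 ± 12.8 FPKM in control tumors (mean ± SD, n = 4). Rarg followed at 56.4 ± 12.4 FPKM, then Thra at 40.5 ± 11.5 and Ppard at 40.0 ± 8.94. Rara was at 9.48 ± 2.35 FPKM and Nr1h3 at 3.17 ± 0.952. The lowest 3 members were Pparg at 0.739 ± 0.424, Ppara at 0.316 ± 0.0869 and Rarb at 0.238 ± 0.0798 FPKM. Among the 15504 genes that passed the filter on low counts, the mean level over 12 tumors placed Vdr at the 93.1 percentile and Nr1h2 at 92.6, Rara at 47.9, Nr1h3 at 30.5 and Ppara at 6.02.

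By FPKM, Rarg held rank 3, Rara rank 6 and Nr1h3 rank 7 in each of the 12 tumors. Some neighbours in this order did not separate beyond their spread. Vdr was above Nr1h2 in 6 of 12 tumors, Thra was above Ppard in 7, and the lowest 3 members exchanged ranks 8 to 10. The deposited FPKM rest on a gene length that is 1.72 to 4.81 times shorter than the length listed for the same member, most of all for Vdr (1175 against 5650 bases). Per kilobase of the listed length, Nr1h2 led with 36.1 ± 4.32 CPM in control tumors and Vdr was second with 26.4 ± 10.5. The other 8 members kept their order by control mean, but not in each tumor. On that scale Vdr was above Rarg in 8 of 12 tumors and Ppard above Rara in 11.

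**Figure D1:**
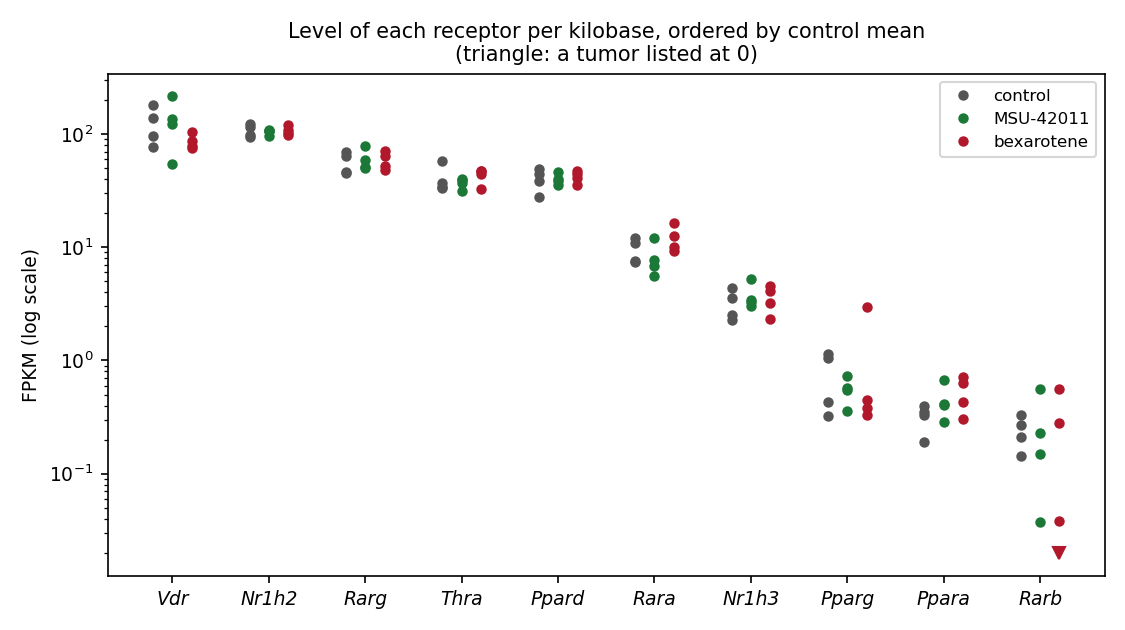
FPKM of each of the 10 receptors in 12 tumors, on a log axis, with 1 point per tumor and the diets in 3 colors. The order runs from Vdr (123 FPKM in control tumors) to Rarb (0.238), and the 3 diets lie over each other for most receptors.

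Within each family 1 subtype held most of the mRNA. Rarg made up 85.3 ± 3.26% of the FPKM of the 3 retinoic acid receptors over 12 tumors, Rara 14.4 ± 3.25% and Rarb 0.380 ± 0.332%. Ppard made up 97.0 ± 2.26% of the PPAR total and Nr1h2 96.8 ± 0.818% of the LXR total. With the listed gene lengths these shares were 75.6 ± 4.80% for Rarg, 94.9 ± 3.67% for Ppard and 94.5 ± 1.38% for Nr1h2, so the leading subtype was the same on both scales. Pparg, the receptor that directs fat cell formation, reached at most 7.56% of the PPAR total by FPKM and 12.4% with the listed lengths, both in bexarotene replicate 1.

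**Figure D2:**
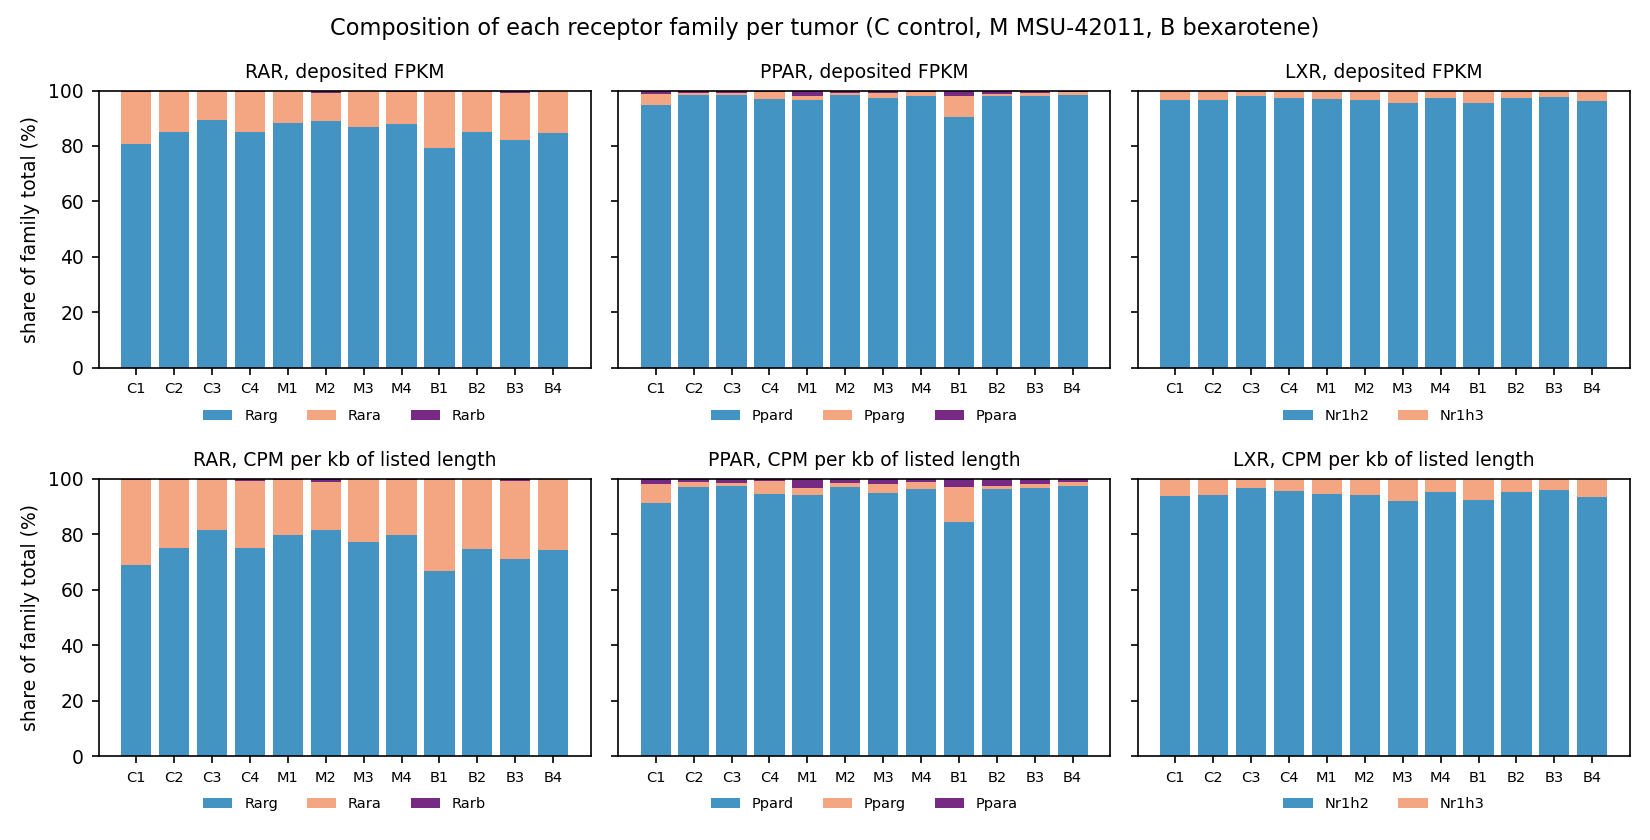
Share of each subtype in the total of its receptor family in each tumor, in percent, from the deposited FPKM (top) and from CPM per kilobase of listed gene length (bottom). Rarg, Ppard and Nr1h2 fill most of every bar, and the bexarotene replicate 1 bar has the largest Pparg share (7.56% by FPKM).

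The RXR genes themselves were present at levels like those of the abundant partners. Rxrb encodes the broadly expressed RXR beta and Rxra the main epithelial form. Over the 12 tumors Rxrb averaged 57.2 FPKM and Rxra 37.7 FPKM. Rxrg, a form of muscle and brain, had 10 counts in all tumors together and was not tested. Rxra averaged 91.0 ± 18.02 normalized CPM in control, 86.0 ± 26.6 in MSU-42011 and 74.7 ± 19.6 in bexarotene tumors (mean ± SD, n = 4). Rxrb averaged 73.6 ± 13.1, 72.0 ± 1.31 and 68.4 ± 4.82 CPM in the same order. Neither passed the edgeR test in any comparison, and the log2 fold changes from control were −0.082 and −0.28 for Rxra and −0.033 and −0.11 for Rxrb, with MSU-42011 and with bexarotene (adjusted p between 0.896 and 0.9999). Without bexarotene replicate 1, Rxra with bexarotene was −0.48 (SE 0.21, edgeR unadjusted p = 0.045, adjusted 0.978).

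The tissue and depth were as follows. Total counts per tumor ran from 16583413 to 25925027, and the 10 members together took between 365 and 603 CPM. All 8 markers of mammary epithelium and MMTV-neu tumor were detected above the filter, with a summed level between 3229 and 6712 CPM. Bexarotene replicate 1 stood apart from the other 11 tumors. Its median correlation with them over genes was 0.915, against at least 0.961 for every other tumor. Its fibroblast marker level was 8.52 on the log2 scale against at most 5.22 elsewhere, its macrophage level 7.04 against at most 5.33, its endothelium level 5.58 against at most 4.12 and its adipocyte level 2.15 against at most 0.81. In bulk tumor RNA, fewer cells of a type and less RNA per cell cannot be told apart.

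To compare the diets, the counts of all 15504 genes were fitted with edgeR (quasi-likelihood), and p-values were adjusted over all of them by the Benjamini-Hochberg method. Rarb did not pass the filter, which left 9 members. At an adjusted p under 0.05, 0 of 9 members were called with MSU-42011, 0 with bexarotene and 0 between the compounds, where the test called 0% of all genes in each comparison. At an unadjusted p under 0.05, 0, 0 and 1 of 9 members were below the threshold, against 1.99%, 6.44% and 3.95% of all genes. DESeq2 called 1, 6 and 25 genes in the 3 comparisons, none of them a member. With MSU-42011, 4 of 9 members had a log2 fold change above 0 (50.3% of all genes) and the median was −0.053 (0.0016 for all genes). With bexarotene, 7 of 9 were above 0 (55.3% of all genes) with a median of 0.034 (0.030 for all genes). Without bexarotene replicate 1, 6 of 9 were above 0 (51.2% of all genes) with a median of 0.0088. The groups of tumors overlapped for each of the 10 members in all 3 comparisons, where groups did not overlap for 1.97%, 2.03% and 1.17% of all genes.

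**Figure D3:**
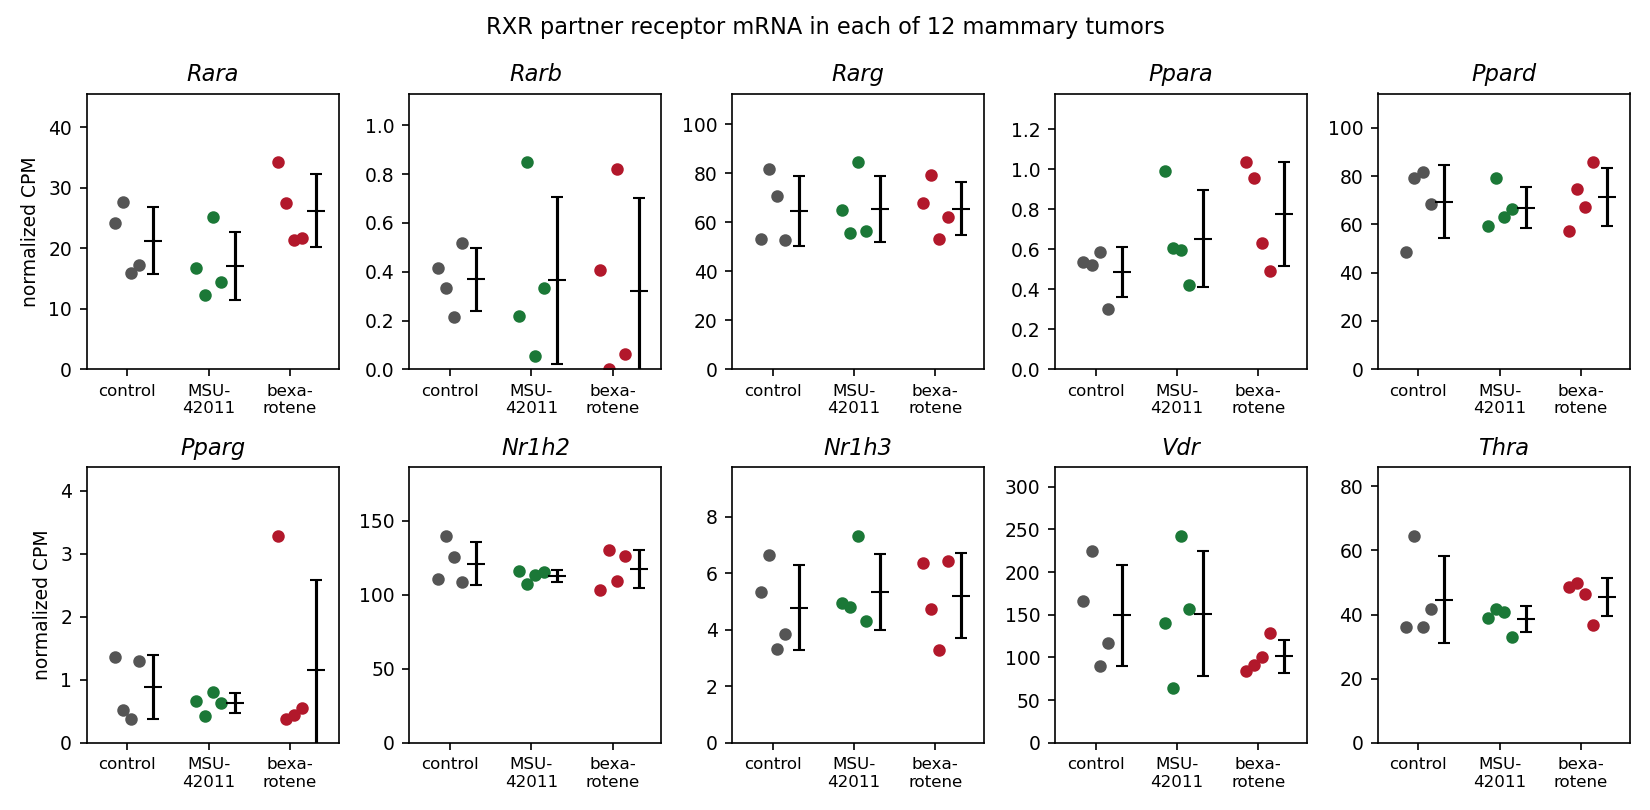
Normalized CPM of each receptor in each tumor, with a linear axis that starts at 0, 4 points per diet and the mean ± SD beside them (bars that run below 0 end at the axis). The groups overlap in every panel, and the highest Pparg point (3.28 CPM) is bexarotene replicate 1.

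Rara encodes the retinoic acid receptor that is found in most tissues. Its normalized CPM was 24.2, 27.6, 16.0 and 17.3 in the control tumors (replicates 1 to 4). It was 16.7, 12.3, 25.1 and 14.5 in the MSU-42011 tumors. It was 34.2, 27.5, 21.3 and 21.7 in the bexarotene tumors. The MSU-42011 tumors were mostly low and the bexarotene tumors mostly high, with 3 of 4 MSU-42011 tumors below the lowest bexarotene tumor and replicate 3 of MSU-42011 among the bexarotene values. The log2 fold change of MSU-42011 against bexarotene was −0.61 (SE 0.25, 95% interval −1.16 to −0.063), with an edgeR p of 0.0317 before adjustment and 0.997 after it. By that p it ranked 380 of 15504 genes. The exact two-sided permutation test of the same 4 against 4 tumors gave p = 0.0857, where the smallest p it can give is 0.0286. Leaving out 1 tumor at a time moved the log2 fold change from −0.85 without MSU-42011 replicate 3 to −0.46 without bexarotene replicate 1. The edgeR unadjusted p was then 0.00387 and 0.0971. It was above 0.05 without any 1 of 5 tumors, which were replicates 1, 2 and 4 of MSU-42011 and replicates 1 and 2 of bexarotene (0.0605 to 0.0971). The fold changes from control lay on opposite sides of 0, at −0.31 with MSU-42011 (95% interval −0.86 to 0.24) and 0.30 with bexarotene (−0.24 to 0.85), with an edgeR unadjusted p of 0.242 and 0.252. Both depended on single tumors. The first ran from −0.16 without control replicate 2 to −0.55 without MSU-42011 replicate 3 (edgeR unadjusted p = 0.0371, adjusted 0.9999). The second ran from 0.15 without bexarotene replicate 1 to 0.45 without control replicate 2.

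Rarg, the main RAR of epithelia and skin, was at 53.1, 81.9, 70.6 and 52.6 CPM in control tumors. The MSU-42011 tumors had 65.0, 55.7, 84.3 and 56.5 CPM, and the bexarotene tumors 67.9, 79.2, 52.9 and 62.2. The 3 groups covered the same range. On the log2 scale the fold change was 0.019 with MSU-42011 (95% interval −0.38 to 0.42) and 0.022 with bexarotene (−0.38 to 0.42). Between the compounds it was −0.0038 (−0.40 to 0.40), and its sign changed with the scaling.

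The balance of Rara and Rarg was also listed, as the Rara share of RAR FPKM. This quantity was chosen after the values were seen and was not tested. It was 11.6%, 10.1%, 13.2% and 11.6% in MSU-42011 tumors and 20.4%, 15.1%, 16.9% and 15.2% in bexarotene tumors, so these groups did not overlap. The control tumors, at 18.8%, 14.7%, 10.4% and 14.3%, overlapped with both. Among 24 comparisons of family shares, 2 (8.33%) did not overlap, and the other one was the Rarg share of the same tumors, its near complement. The difference was −5.30 percentage points by FPKM and −7.88 with the listed lengths, and between −5.90 and −4.12 by FPKM when 1 tumor was left out.

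Rarb, a receptor gene that is itself a target of retinoic acid through the repeat shown above, was near the floor of detection. The raw counts were 7, 7, 4 and 12 in control, 4, 14, 1 and 8 in MSU-42011 and 11, 0, 17 and 1 in bexarotene tumors. Of the 12 tumors, the tumors with 1 or no count were MSU-42011 replicate 3 and bexarotene replicates 2 and 4, so both low and high values occurred within each treated group. The exact permutation p was 0.857, 0.629 and 0.83 for MSU-42011 against control, bexarotene against control and MSU-42011 against bexarotene. Of the exonic bases of Rarb, 34.1% lie opposite exons of Top2b, which had 27721 counts against 86 for Rarb. The strand setting of the counting was not given in the sources used here, and without strand these reads cannot be assigned with certainty.

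Ppard encodes the PPAR found in most tissues, and its CPM was 48.5, 79.1, 81.8 and 68.4 in control tumors. The values were 59.4, 79.2, 63.0 and 66.3 in MSU-42011 tumors and 57.1, 74.5, 67.4 and 85.6 in bexarotene tumors. The groups overlapped, with bexarotene replicate 4 the highest of the 12 tumors and control replicate 1 the lowest. Against control the log2 fold change was −0.053 with MSU-42011 (95% interval −0.43 to 0.32), with a sign that changed on the FPKM scale, and 0.034 with bexarotene (−0.34 to 0.41). Between the compounds it was −0.087 (−0.46 to 0.29).

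Ppara, the receptor that drives fatty acid oxidation in liver, had 7 to 11 raw counts in the control tumors. Its counts were 18, 10, 11 and 10 in MSU-42011 and 28, 20, 13 and 8 in bexarotene tumors, or 0.486 ± 0.126, 0.653 ± 0.241 and 0.777 ± 0.259 CPM in the 3 groups (mean ± SD, n = 4). In both treated groups 3 of 4 tumors were above the highest control tumor, by CPM. Against control the log2 fold change was 0.42 with MSU-42011 (SE 0.40, 95% interval −0.46 to 1.30) and 0.69 with bexarotene (SE 0.40, −0.18 to 1.55). The edgeR adjusted p was 0.9999 and 0.851, and the exact permutation p 0.314 and 0.143. The 2 comparisons share the control tumors. Between the compounds the log2 fold change was −0.27 (−1.12 to 0.58).

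Pparg was measured from few counts as well, and 1 tumor decided its values. Its CPM was 1.36, 0.521, 0.374 and 1.29 in control and 0.660, 0.424, 0.813 and 0.629 in MSU-42011 tumors. In bexarotene tumors it was 3.28, 0.382, 0.436 and 0.552. The tumor at 3.28 CPM is bexarotene replicate 1, the one with the highest fibroblast, macrophage, endothelium and adipocyte marker levels. The part of those cells in the value was not tested. The log2 fold change of bexarotene against control was 0.41 (SE 0.69, 95% interval −1.09 to 1.92) with that tumor and −0.96 without it. For MSU-42011 against bexarotene it was −0.90 (−2.43 to 0.64) with it and 0.47 without it. For MSU-42011 against control it was −0.48 (−2.04 to 1.07).

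Nr1h2 was the steadiest member. Its CPM was 111, 139.9, 125 and 109 in control tumors, 116, 107, 114 and 116 in MSU-42011 tumors and 103, 131, 109.6 and 126 in bexarotene tumors. Its highest tumor was 1.35 times its lowest, and its within-group SD on the log2 scale was 0.14, at the 9.23 percentile of all tested genes. On the log2 scale the fold change was −0.10 with MSU-42011 (95% interval −0.33 to 0.13), −0.046 with bexarotene (−0.28 to 0.19) and −0.054 between the compounds (−0.29 to 0.18). These were the narrowest intervals among the 9 members.

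Nr1h3, the LXR of macrophages, liver and fat, had CPM of 5.34, 6.63, 3.31 and 3.84 in control tumors. It had 4.95, 4.79, 7.31 and 4.32 in MSU-42011 tumors and 6.35, 4.72, 3.29 and 6.44 in bexarotene tumors. The groups overlapped and the lowest tumors of control and bexarotene lay together. On the log2 scale the fold change was 0.16 with MSU-42011 (95% interval −0.49 to 0.81), 0.12 with bexarotene (−0.53 to 0.77) and 0.038 between the compounds (−0.61 to 0.69).

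Vdr, the receptor for active vitamin D, varied most among the abundant members. Its CPM was 166, 224, 89.4 and 117 in control tumors and 141, 63.7, 242 and 157 in MSU-42011 tumors. In bexarotene tumors it was 84.3, 90.8, 100.2 and 129. The bexarotene tumors were close together at the low end, with an SD of 19.8 CPM against 59.3 in control and 73.3 in MSU-42011 tumors, while MSU-42011 replicate 2 was lower than all of them. The log2 fold change was 0.016 with MSU-42011 (SE 0.35, 95% interval −0.75 to 0.79) and −0.56 with bexarotene (SE 0.36, −1.34 to 0.21), with edgeR adjusted p-values of 0.9999 and 0.872. With bexarotene it was −0.30 without control replicate 2 and −0.74 without control replicate 3. Between the compounds it was 0.58 (SE 0.36, −0.20 to 1.35, edgeR adjusted p = 0.997), and 3 of 4 MSU-42011 tumors were above the highest bexarotene tumor (exact permutation p = 0.343). Without 1 tumor at a time this difference ran from 0.25 to 0.83, with an edgeR unadjusted p between 0.0157 and 0.469. No adjusted p was under 0.05 in these fits. The spread of Vdr within groups was at the 85.5 percentile of tested genes, second among the members to Pparg at 88.9.

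Thra, the thyroid hormone receptor of most tissues, was at 36.0, 64.5, 36.2 and 41.6 CPM in control tumors. It was at 38.9, 41.7, 40.8 and 32.9 CPM in MSU-42011 and 48.6, 49.98, 46.5 and 36.8 in bexarotene tumors. Of the 4 MSU-42011 tumors, 1 was below the lowest bexarotene tumor. The log2 fold change was −0.21 with MSU-42011 (95% interval −0.61 to 0.19), 0.029 with bexarotene (−0.37 to 0.43) and −0.24 between the compounds (−0.64 to 0.16, exact permutation p = 0.114). Exons of Thra share 263 bases (5.70%) with Nr1d1 on the other strand, which had 12420 counts against 10475.

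For the direct comparison of the 2 compounds, which were given at the same dose and for the same days, 9 differences were tested. Of these, 2 were above 0 (45.1% of all genes) with a median of −0.087 (−0.024 for all genes), and without bexarotene replicate 1 the count was 4. The interval of the difference reached a 2-fold change (1 on the log2 scale) in the direction of lower values with MSU-42011 for 3 members, Rara, Ppara and Pparg, and in the direction of higher values for 1, Vdr. For Rarg, Ppard, Nr1h2, Nr1h3 and Thra it stayed inside a 2-fold change in both directions.

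**Figure D4:**
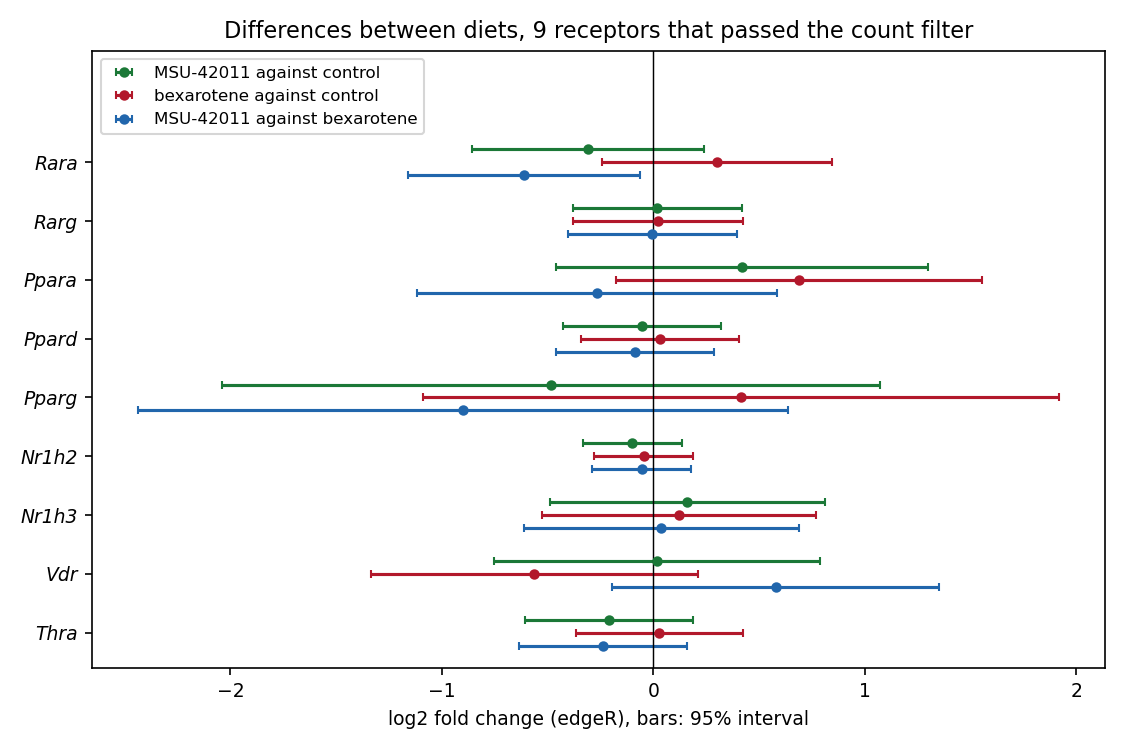
Log2 fold change (points) and 95% interval (bars) of the 9 tested receptors in 3 comparisons from the edgeR fit. Only the Rara interval of MSU-42011 against bexarotene (−1.16 to −0.063) leaves out 0, its adjusted p is 0.997, and the Pparg intervals are the widest.

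Other partners of RXR were seen in 4 of 7 cases. Nr4a1, an immediate-early orphan receptor, stood at 97.8 FPKM over the 12 tumors, close to Nr1h2, Thrb at 8.07 and Nr4a2 at 3.81. Nr1h4, Nr1i2 and Nr1i3, the bile acid and xenobiotic receptors of liver and gut, did not pass the filter. With MSU-42011 4 of 4 were above 0 (50.3% of all genes; median 0.20), at 0.024 for Nr4a1, 0.46 for Nr4a2 and 0.17 for Thrb. With bexarotene 3 of 4 were above 0 (55.3% of all genes; median 0.41), and the log2 fold change was 0.23 for Nr4a1, 0.60 for Nr4a2 and −0.11 for Thrb. For the fourth, Nr1h5, it was 0.22 with MSU-42011 (SE 0.62) and 0.89 with bexarotene (SE 0.62). This is a relative of the bile acid receptor that was named after its value was seen, with means of 3.10 CPM in control and 5.75 in bexarotene tumors. None of the 4 passed the edgeR test in any comparison (smallest adjusted p 0.877).

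Corepressors and coactivators, the proteins that bind these receptors without and with ligand, were all measured (18 of 18 tested, 0 called). Hdac3, the deacetylase of the NCoR complex, was at 72.5 FPKM, Gps2 at 54.9 and Ncor1 at 52.1. With MSU-42011, 15 of 18 were above 0 with a median of 0.10, and with bexarotene 13 of 18 with a median of 0.071 (50.3% and 55.3% of all genes were above 0). Without bexarotene replicate 1 the median with bexarotene was 0.030. The log2 fold change with MSU-42011 was 0.16 (SE 0.086) for Ncor1, −0.16 (SE 0.094) for Hdac3 and 0.067 (SE 0.17) for Gps2, with an edgeR adjusted p of 0.9999 for each.

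Genes that supply or break down the ligands were tested for 15 of 23, with 0 called. With MSU-42011 7 of 15 were above 0 (median −0.067), and with bexarotene 11 of 15 (median 0.53), where 50.3% and 55.3% of all genes were. Without bexarotene replicate 1, 7 of 15 were above 0 with bexarotene and the median was −0.091, so both values rested on that tumor. Crabp2 and Dhrs3, which act in the handling of retinoids, were the most abundant at 110 and 80.5 FPKM.

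Target genes of the receptors were read as lists written from general knowledge, and 0 were called in any list and comparison. For RAR targets 8 of 13 were tested, with 2 above 0 with MSU-42011 (median −0.21) and 4 with bexarotene (median 0.087). Without bexarotene replicate 1 the latter were 2 and −0.20. Cyp26a1, the retinoic acid hydroxylase that responds most directly to RAR ligands, did not pass the filter, with means of 0.0549 CPM in control, 0.0210 in MSU-42011 and 0.935 in bexarotene tumors, the last falling to 0.300 without replicate 1. Cyp26b1 had a log2 fold change of 1.28 with MSU-42011 (SE 1.05) and 1.00 with bexarotene (SE 1.05), and the latter was −0.27 without bexarotene replicate 1. The values were, in the same order, for Dhrs3 −0.36 and −0.22 and for Tgm2, a transglutaminase, −0.37 and −0.36.

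For PPAR targets 18 of 24 were tested, with 5 above 0 with MSU-42011 (median −0.11) and 7 with bexarotene (median −0.12), which became 3 and −0.19 without bexarotene replicate 1. Plin2, the coat protein of lipid droplets, was highest at 838 FPKM, followed by the fatty acid carrier Cd36 at 270 and the oxidation enzyme Hadha at 100. Plin2 had 824 ± 187 CPM with MSU-42011 and 577 ± 156 with bexarotene (log2 fold change between them 0.51, SE 0.23, edgeR adjusted p = 0.997). The log2 fold change with bexarotene was 0.58 for Cpt1a, 0.84 for Pdk4, −0.81 for Angptl4 and 0.70 for Fabp4. All of these moved without bexarotene replicate 1, to 0.18 for Cpt1a, 0.0049 for Pdk4, −2.65 for Angptl4 and −0.091 for Fabp4, an adipocyte gene. The group mean then moved from 33.7 to 19.5 CPM for Fabp4 and from 21.8 to 6.06 for Angptl4.

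For LXR targets 13 of 15 were tested, with 8 above 0 with MSU-42011 (median 0.0051) and 10 with bexarotene (median 0.31), which became 7 and 0.13 without bexarotene replicate 1. Apoe and Srebf1, the lipid carrier and the lipogenic regulator, were the most abundant of all targets at 2244 and 1669 FPKM, and Scd1 was at 658. The cholesterol exporters Abca1 and Abcg1 had log2 fold changes of 0.027 and −0.037 with MSU-42011 and 0.040 and −0.11 with bexarotene, the latter pair being −0.42 and −0.28 without that tumor. Srebf1 had 0.23 and 0.31, and Mylip, which degrades the LDL receptor, 0.0051 and −0.18. Scd1 had 0.39 with MSU-42011 (SE 0.53) and 0.97 with bexarotene (SE 0.53), with an edgeR adjusted p of 0.9999 and 0.839. Without that tumor Srebf1 was at 0.52, Mylip at −0.40 and Scd1 at 1.25 with bexarotene (edgeR adjusted p = 0.978 for each).

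For VDR targets 7 of 11 were tested, with 4 above 0 with MSU-42011 (median 0.57) and 5 with bexarotene (median 0.53), which became 4 and 0.028 without bexarotene replicate 1. Cyp24a1, the enzyme that breaks down vitamin D and the classical target of its receptor, averaged 2.28 CPM in control, 4.53 in MSU-42011 and 3.70 in bexarotene tumors, with log2 fold changes of 0.98 (SE 0.87) and 0.70 (SE 0.87), the latter 0.18 without that tumor. Spp1, which encodes osteopontin, had 146 ± 179 CPM in control, 16.6 ± 18.8 in MSU-42011 and 54.8 ± 62.7 in bexarotene tumors (mean ± SD, n = 4). Spp1 differed from control by −3.13 on the log2 scale with MSU-42011 (SE 1.27) and by −1.40 with bexarotene (SE 1.18), with an edgeR adjusted p of 0.9999 and 0.899. The latter was −2.50 without bexarotene replicate 1. For thyroid hormone receptor targets 6 of 8 were tested, with 3 above 0 with MSU-42011 and 2 with bexarotene (medians −0.027 and −0.13). Thrsp, a lipogenic gene, had log2 fold changes of 0.00014 and 0.33, the corepressor Hr −0.054 and −0.12, and Klf9 0.27 and −0.27. Without bexarotene replicate 1 the bexarotene median was −0.070, with Thrsp at 0.54 and Klf9 at −0.42.

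The members were also set against the marker levels of 8 cell types over the 12 tumors, as the mean log2(CPM + 0.5) of each list. Of 72 relations, 0 had an adjusted p under 0.05 in a two-sided permutation test with Benjamini-Hochberg adjustment. The smallest p was that of Rara with macrophage markers (Pearson r = 0.76, permutation p = 0.00149, adjusted 0.0837; Spearman rho = 0.83, permutation p = 0.00147, adjusted 0.106). It was 0.70 without bexarotene replicate 1 and 0.67 without the 2 tumors farthest from the median macrophage level. Ppard had a negative correlation with T cell markers (r = −0.78, permutation p = 0.00306, adjusted 0.0837; rho = −0.77, permutation p = 0.00517, adjusted 0.186), with r = −0.78 without bexarotene replicate 1 and −0.77 without the 2 farthest tumors. T cell marker levels were low, between 0.042 and 1.10 on this scale.

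Pparg had r = 0.87 with endothelium markers (permutation p = 0.00485, adjusted 0.0837; rho = 0.67, permutation p = 0.0205, adjusted 0.305). It was 0.53 without bexarotene replicate 1, which lies far from the other tumors, and 0.61 without the 2 tumors farthest from the median endothelium level. With macrophage and skeletal muscle markers Pparg had r = 0.83 in both cases, and 0.48 and 0.60 without that tumor. Without the 2 tumors farthest from the median level they were 0.46 and −0.085. For skeletal muscle those were control replicate 1 and bexarotene replicate 1, with marker levels of 3.47 and 4.21 on the log2 scale against at most 0.083 in the other 10 tumors, so that relation rested on them. With adipocyte markers, where 2 of 8 were tested, r was 0.72 and 0.11 without that tumor. With T cell markers it was 0.54, and 0.71 without that tumor. For fibroblast and myoepithelium markers r was 0.77 and 0.83, and 0.19 and 0.41 without that tumor. Without the 2 tumors farthest from the median level these were 0.72 and 0.35. For adipocyte and T cell markers r was then 0.43 and 0.65. With the mean of each diet group removed, 8 of 72 relations had an adjusted permutation p under 0.05, those of Rara with macrophage markers, of Ppard with T cell and skeletal muscle markers and of Pparg with 5 lists. The relation of Ppard with skeletal muscle rested on the same pair of tumors, with r = −0.68 over 12 tumors and 0.28 without them. These permutations do not allow for the 3 means removed, so those p-values are too small.

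**Figure D5:**
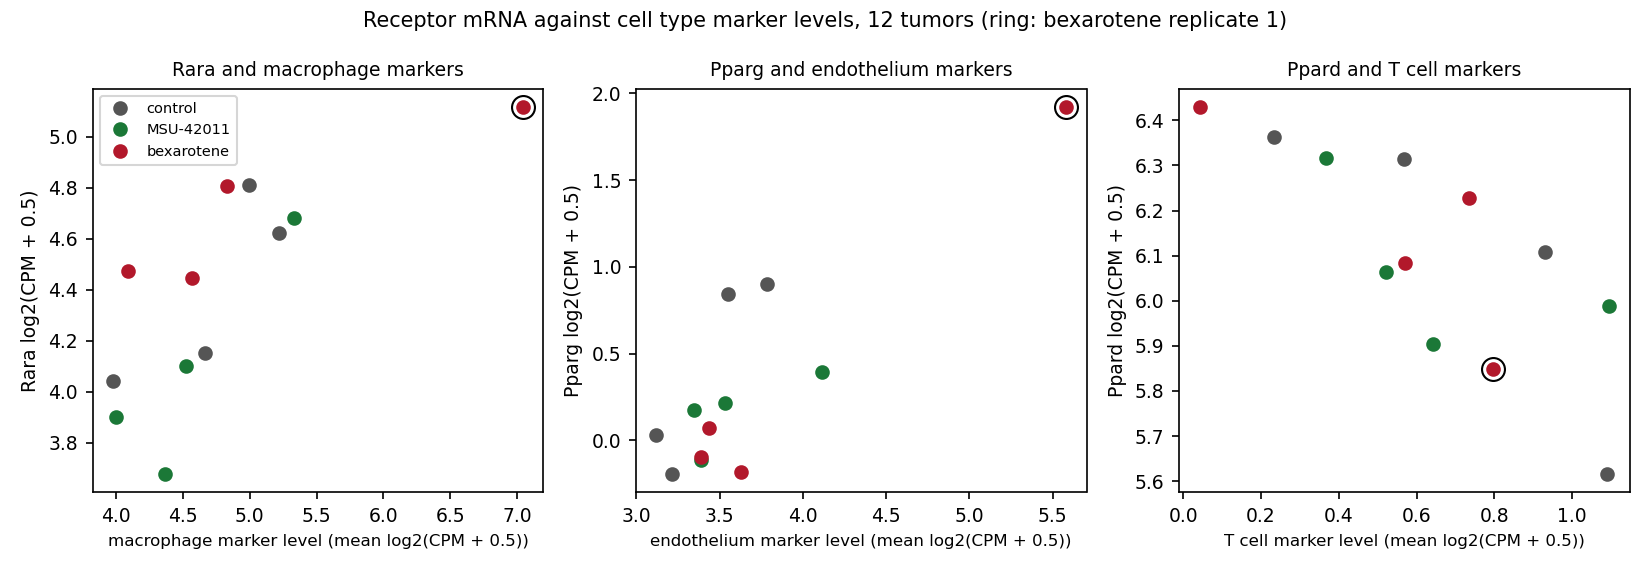
Log2(CPM + 0.5) of Rara, Ppard and Pparg against the marker level of 1 cell type list, with 1 point per tumor, the diets in 3 colors and a ring around bexarotene replicate 1. The Rara correlation with macrophage markers is similar with and without the ringed tumor (r = 0.76 and 0.70), while the Pparg relation falls from r = 0.87 to 0.53 without it.

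Between members, 0 of 36 pairs had an adjusted permutation p under 0.05. The largest correlation was negative, between Ppard and Pparg (r = −0.67, permutation p = 0.0163, adjusted 0.322; rho = −0.76, permutation p = 0.00575, adjusted 0.207), with r = −0.71 without bexarotene replicate 1 and −0.69 without the 2 tumors farthest from the median of Ppard. Rarg and Nr1h2 followed with r = 0.61 (permutation p = 0.0371, adjusted 0.322; rho = 0.57, permutation p = 0.0589, adjusted 0.457), and r was 0.63 without the 2 farthest tumors.

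The genes whose pattern was most like that of each member were found by Pearson r of log2(CPM + 0.5) over the 12 tumors, among all tested genes, as a description. The closest match of any member was that of Vdr with Lbp, the lipopolysaccharide binding protein (r = 0.976, and 0.975 without bexarotene replicate 1), followed by Unc13d (0.959) and Prtg (0.950). Rara was closest to Syt8 (0.917), Asb10 (0.886) and Gas6 (0.885), of which Gas6 was the abundant one at 131 CPM. Rarg was closest to Top3b, Tapt1 and Plekhm2 (0.916, 0.912 and 0.883), and Nr1h2 to Cars2, Wiz and Nrbp2 (0.905, 0.887 and 0.858). Thra was closest to Gpr19, Gpnmb and Zc3h12d (0.916, 0.901 and 0.859), Ppard to Tmem42, Xab2 and Scamp3 (0.898, 0.893 and 0.889) and Nr1h3 to Twf2, Prdm1 and Otop1 (0.882, 0.874 and 0.871). Ppara was closest to the pseudogene Olfr1372-ps1 (0.904), Gpr157 (0.886) and Sec61a2 (0.861). Pparg was closest to Gm1966, Ubash3b and Gng2 (0.938, 0.933 and 0.932), which ranked 42, 30 and 43 once bexarotene replicate 1 was left out.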

How the data were processed

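Per the labels, poly(A)-enriched libraries were made from 1 ug of total RNA of 12 mammary tumors. The submitters' processing notes name STAR 2.6.1d, featureCounts 1.5.0-p3 and DESeq2, while the strand setting was not given in the sources used here. The authors deposited whole-number read counts per gene, without normalization, and FPKM, which they scaled for library size and a gene length shorter than the length listed in the deposited table. Coordinates matched GENCODE M21 on GRCm38 for 98.3% of the genes found there.

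Counts were normalized by TMM in edgeR, and filterByExpr kept 15504 of 54532 genes. The 3 diets were fitted together by edgeR (quasi-likelihood, 1 mean per diet, no covariate), with Benjamini-Hochberg adjustment over all tested genes and a threshold of 0.05. No outlier was removed. Log2 fold changes are differences of group means in that fit, with 95% intervals. Single genes were compared by exact two-sided permutation tests (70 splits) on log2(CPM + 0.5). Correlations were tested with 100000 permutations. P-values measure the spread between tumors of a group. A floor of 3 counts was between 0.111 and 0.184 CPM, and covers counting error only. Alternatives were DESeq2 size factors, DESeq2, limma on log2 FPKM, other filters, a replicate block and each tumor left out. The gene lists without bexarotene replicate 1 were added after seeing the data. The fits were tested on simulated data. The members and lists were chosen with earlier results of these data known. Named genes are the members, the RXR genes, the 3 nearest genes of each tested member, and of each pathway list the 3 of highest FPKM, any called gene and a set of textbook targets. One gene that this rule names is not reported here. Versions were R 4.3.3, edgeR 4.0.16, DESeq2 1.42.0, limma 3.58.1, Python 3.11.15 and scipy 1.17.1.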

Additional observations from a re-analysis of the deposited data

Results flagged for a closer look

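One value was set apart from its group. The Pparg level in bexarotene replicate 1 was 3.28 normalized CPM, while the other bexarotene tumors lay between 0.382 and 0.552. Its gap to the nearest of them was 0.941 of the group's range, above Dixon's critical value for 4 samples. This was 1 of 30 groups examined (10 receptors in 3 diet groups), and chance gives about 1 in 20. The same tumor had the highest marker levels of fibroblasts, macrophages, endothelium, adipocytes, myoepithelium and skeletal muscle among the 12, and the part of those cells in the Pparg value was not tested. Without it the bexarotene mean was 0.456 ± 0.0869 CPM (SD, n = 3) in place of 1.16 ± 1.42 (n = 4).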

How the results depend on the processing

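The count of members called was 0 in every comparison under all alternatives run. Counts over all genes moved. With DESeq2 they were 1, 6 and 25 in MSU-42011 against control, bexarotene against control and MSU-42011 against bexarotene, and 5 for any difference among the groups. Limma on log2(FPKM + 1) without a filter called 1 gene in MSU-42011 against control, 1 in MSU-42011 against bexarotene and 1 for any difference. With 1 tumor left out, the counts for bexarotene against control and for any difference ran from 0 to 1, and the 1 came without MSU-42011 replicate 2. Of the relations to cell type markers, 8 in place of 0 passed with group means removed. Of 588 member fold changes under alternatives, 540 kept their sign. Of the 48 that did not, 10 were not from a tumor left out. Rarg between the compounds was 0.0029 with DESeq2 size factors, 0.017 without a filter, 0.0057 with DESeq2, and 0.0119 (pseudocount 1, with or without a filter) and 0.0120 (0.1) with limma on FPKM. Ppard with MSU-42011 was 0.0286 and 0.0299 with limma at these pseudocounts. The cause of these sign changes was not tested.

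With 1 tumor left out, log2 fold changes with MSU-42011 ran from −0.13 to 0.15 for Rarg, −0.19 to 0.035 for Ppard, −0.030 to 0.36 for Nr1h3, −0.31 to 0.28 for Vdr and −0.30 to 0.022 for Thra. With bexarotene they ran from −0.081 to 0.15 for Rarg, −0.10 to 0.13 for Ppard, −0.96 to 0.70 for Pparg, −0.10 to 0.027 for Nr1h2, −0.019 to 0.32 for Nr1h3 and −0.063 to 0.26 for Thra. Between the compounds they ran from −0.15 to 0.10 for Rarg, −0.18 to 0.019 for Ppard, −1.18 to 0.47 for Pparg, −0.11 to 0.00088 for Nr1h2 and −0.15 to 0.16 for Nr1h3. The other 11 of 27 pairs of member and comparison kept their sign. With MSU-42011 these ran from −0.55 to −0.16 for Rara, 0.15 to 0.59 for Ppara, −0.74 to −0.22 for Pparg and −0.14 to −0.024 for Nr1h2. With bexarotene they ran from 0.15 to 0.45 for Rara, 0.51 to 0.84 for Ppara and −0.74 to −0.30 for Vdr. Between the compounds they ran from −0.85 to −0.46 for Rara, −0.53 to −0.089 for Ppara, 0.25 to 0.83 for Vdr and −0.32 to −0.16 for Thra.

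The labels give the diets the same replicate numbers and nothing else that ties same-numbered tumors together. Deviations of same-numbered tumors correlated between −0.39 and 0.38, and those of replicate 4 at 0.13, 0.14 and 0.15. With the replicate block, 0 members and 0 genes were called, Rara between the compounds was −0.59 (edgeR unadjusted p = 0.0463), and Vdr with MSU-42011 was −0.041.

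Rarb, Ppara and Pparg rest on 86, 156 and 235 counts over 12 tumors, and the other members on at least 1232. The parts of depth and of the number of tumors in the width of the intervals were not tested.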
